A study of Mus musculus with 9 samples.

Results

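Regions open only in iPSCs were 13273 of the 56042 iPSC regions on chromosomes 1 to 19, and the 7 libraries of the reprogramming time course together held 204843 regions. Accessible regions were measured by ATAC-Seq, in which the Tn5 transposase cuts open chromatin and the sequenced ends show where it was accessible. Overlapping peaks of the 7 libraries were merged into regions, a library was counted as open where a peak of it covered at least 1 bp of the region, and the iPSC-only regions were those with a peak in iPSCs and none in the 6 other libraries. The members were thus chosen from the measured peaks themselves, so their presence and height in these 7 libraries are given as a description and support no comparison. Of all iPSC regions, 23.7% met this rule.

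The starting cells were mouse embryonic fibroblasts (MEFs) of E13.5 embryos that carried an IRES-EGFP reporter downstream of the Oct4 (Pou5f1) stop codon. D0 was the MEFs, and all later groups had received retroviral Oct4, Sox2, Klf4 and c-Myc (OSKM) in the pMXs vector. D3 cells were not sorted, D6T- and D9T- were Thy-1-negative cells of days 6 and 9, and D12S+ and D16S+ were SSEA-1-positive cells of days 12 and 16. The iPSCs were fully reprogrammed cells, and whether they were 1 clone or a pool is not given in the sources used here. In 2 further libraries, D6 siNT and D6 siH3.3, cells had received a non-targeting siRNA or siRNA against the histone variant H3.3 around the start of reprogramming, and were collected at day 6 with the sort labelled as Thy-1-negative. These 2 libraries carried the same OSKM factors and played no part in the rule. Each condition had a single library without replicates. Differences between libraries therefore have no test against replicate error, and all intervals below are 95% Wilson intervals that cover the counting of regions only.

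iPSCs resemble embryonic stem cells, in which Oct4 (Pou5f1), Sox2 and Nanog form the core of the pluripotency network and Esrrb, Klf2, Tfcp2l1, Tbx3 and others make up its naive circuit. Oct4 binds an octamer, often beside Sox2 on a composite site, and Esrrb is an orphan nuclear receptor that binds an extended half-site. A distal element that opens in a cell type is often an enhancer, and such elements lie mostly in introns and between genes. AP-1 (Fos and Jun), Runx and Tead factors are known for the enhancers of fibroblasts.

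The following windows of 200 bp around the iPSC summit were picked because they hold an ESRRB motif or an OCT4 octamer. The first lie near pluripotency genes, and the last at the highest such members without a similar sequence at another iPSC peak. These motifs were found in 1.44% and 3.68% of iPSC-only regions, respectively, so the windows printed are not typical. They were read from the + strand of NCBIM37 (mm9) and are printed 5′ to 3′. Capitals mark the ESRRB motif (TCAAGGTCA or its reverse complement) in the windows near Pou5f1 and Erlin1, and the OCT4 octamer (ATGCNAAT or its reverse complement) in those near Dppa5a, Sall4 and Myc. The first was the strongest member within 50 kb of Pou5f1, at chr17:35622721-35623026 and 20.1 kb upstream of its TSS. The TSS of H2-Q10, a class I histocompatibility gene, was nearer, at 15833 bp. Only members outside annotated exons and UTRs were printed, and 3 members within 50 kb of a pluripotency gene held the ESRRB motif or the octamer outside them.
Pou5f1, upstream: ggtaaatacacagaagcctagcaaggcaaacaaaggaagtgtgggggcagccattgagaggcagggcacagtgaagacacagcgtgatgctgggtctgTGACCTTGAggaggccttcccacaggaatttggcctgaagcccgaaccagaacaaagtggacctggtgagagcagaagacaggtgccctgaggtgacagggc
Dppa5a, upstream: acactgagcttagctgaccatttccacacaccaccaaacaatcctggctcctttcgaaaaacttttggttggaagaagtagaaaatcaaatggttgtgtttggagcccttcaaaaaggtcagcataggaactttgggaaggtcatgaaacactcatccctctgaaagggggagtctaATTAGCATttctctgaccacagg
Sall4, downstream: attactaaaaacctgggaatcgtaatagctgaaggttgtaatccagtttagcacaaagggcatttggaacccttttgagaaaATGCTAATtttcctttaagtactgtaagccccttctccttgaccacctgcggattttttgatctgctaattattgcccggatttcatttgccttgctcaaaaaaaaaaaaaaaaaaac
Myc, downstream: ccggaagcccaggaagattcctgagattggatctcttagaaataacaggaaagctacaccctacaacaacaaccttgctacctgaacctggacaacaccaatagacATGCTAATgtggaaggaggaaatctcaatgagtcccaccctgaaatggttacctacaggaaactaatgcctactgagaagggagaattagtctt
Erlin1, intron: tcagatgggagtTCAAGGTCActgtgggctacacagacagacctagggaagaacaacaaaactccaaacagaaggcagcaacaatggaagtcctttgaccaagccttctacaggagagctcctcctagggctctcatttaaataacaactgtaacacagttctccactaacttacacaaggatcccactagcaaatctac

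The Dppa5a window (chr9:78219214-78219413) lay 3.33 kb upstream of the TSS of this early embryonic RNA-binding protein gene and had a pileup of 16 tags. The Sall4 window (chr2:168590128-168590327) lay 518 bp downstream of a TSS of the gene, which encodes a zinc finger factor of stem cells, and had 14 tags. The window near Myc (chr15:61842418-61842617) was the highest octamer-bearing member without a similar sequence at another iPSC peak, with 40 tags (1.5 CPM) at 23.5 kb downstream of the TSS. The highest member with the ESRRB motif and no similar sequence elsewhere (chr19:44123770-44123969) reached 32 tags in an intron, 18.3 kb from the TSS of Erlin1, the nearest of a protein-coding gene. The Pou5f1 window had 23 tags (0.865 CPM). None of these 5 regions had a peak at D0, D3, D6T-, D9T-, D12S+ or D16S+.

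The iPSC-only regions were low and narrow peaks. The pileup counts the tags, each lengthened to 200 bp, that cover the summit. It ranged from 10 to 44 with a median of 13 in iPSC-only regions, against a median of 18 in the 42769 other iPSC regions. Scaled to the 26580724 tags of the iPSC library, the median was 0.489 CPM in iPSC-only regions and 0.677 in the others. Regions shared by D16S+ and iPSCs alone (3285) had a median of 16 tags, those shared by D12S+, D16S+ and iPSCs alone (3327) had 20, and those open in all 7 libraries (13097) had 28. The median peak width was 255 bp in iPSC-only regions and 413 bp in the other iPSC regions. A single summit was called in 97.6% of iPSC-only regions and in 82.6% of the others. A pileup of 20 or more was reached by 786 iPSC-only regions (5.92%) and by 43.8% of the others.

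The depth of the other libraries limits what absence of a peak shows. The shallowest library, D9T-, had 13213117 tags and the deepest, D0, had 31714845. The lowest CPM at which a peak was called ranged from 0.331 at D3 to 0.530 at D9T-. Of the iPSC-only regions, 4558 (34.3%) had an iPSC CPM at or above the lowest value called in each of the 6 libraries. Against D16S+ alone this held for 10971 regions (82.7%), and against D12S+ alone for 8871 (66.8%). For the remaining regions an opening of the same CPM was not detectable at D9T-, and for part of them not at D12S+ or D16S+ either. At D0, D3 and D6T- all 13273 reached the lowest CPM called. In these bulk samples, opening in fewer cells and less opening per cell cannot be told apart. The share of a library's regions found in no other time-course library was 30.5% for D6T-, 26.9% for D0, 23.7% for iPSCs and 20.8% for D3. It was 9.71% for D16S+, 3.11% for D12S+ and 0.922% for D9T-.

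**Figure D1:**
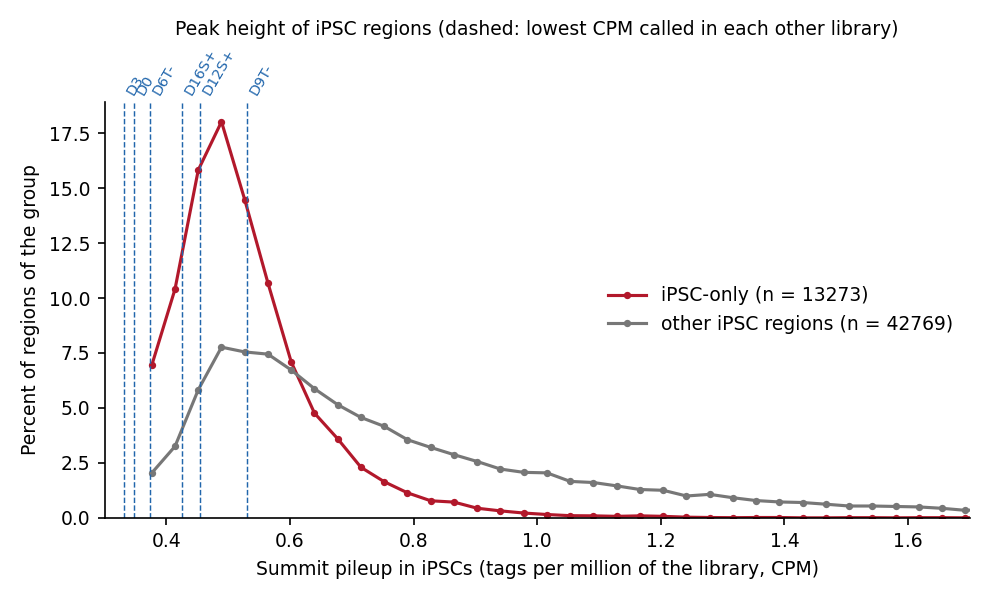
Percent of regions (vertical axis) at each summit pileup in iPSCs, scaled to the tags of the library (horizontal axis, CPM), for iPSC-only regions (red) and other iPSC regions (grey); dashed lines mark the lowest CPM called in each of the 6 other libraries. The iPSC-only regions peak at 0.489 CPM, below the 0.530 CPM that D9T- needed for a call.

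The rule had a sharp edge. In 78 iPSC-only regions the nearest peak of another time-course library ended within 10 bp, and in 71 other iPSC regions no more than 10 bp were shared with such peaks. Both sets had a median pileup of 13 tags. A peak of at least 1 of the 6 libraries lay within 500 bp of 2824 iPSC-only regions (21.3%), most often at D3 (1696 regions), and the median distance to the nearest peak of any of them was 2072 bp. To the nearest D16S+ peak it was 8615 bp.

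In the 2 siRNA libraries, which the rule did not use, iPSC-only regions were nearly without peaks. The rule already required no peak at D6T-, the same day and sort, so a low share was in part fixed beforehand. The shares over all regions carry no such filter. The lowest CPM called was 0.413 at D6 siNT and 0.429 at D6 siH3.3, while iPSC-only regions began at 0.376 CPM. Part of them could thus not be called there at equal CPM. A D6 siNT peak lay at 23 of 13273 iPSC-only regions (0.173%, 0.116 to 0.260), where 20.1% of all 204843 regions had one. A D6 siH3.3 peak lay at 46 (0.347%, 0.260 to 0.462), where 20.4% of all regions had one. Among other iPSC regions that also lacked a peak at D6T-, the shares were 1.81% (1.58 to 2.07) and 1.91% (1.68 to 2.18), above those of iPSC-only regions. Regions shared by D12S+, D16S+ and iPSCs alone had 0.842% at D6 siNT and 1.08% at D6 siH3.3. Other sets of late regions had overlapping intervals: those shared by D16S+ and iPSCs alone had 0.426% (0.254 to 0.714) and 0.548% (0.347 to 0.865), and those of D16S+ alone had 0.340% (0.206 to 0.560) and 0.204% (0.107 to 0.387). The low share is thus not particular to iPSC-only regions. Only 1 iPSC-only region had a peak in both siRNA libraries, and 68 had one in either. With 1 library each, the difference between 46 and 23 regions has no replicate check.

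The iPSC-only regions lay in promoters less often than the other iPSC regions, at a share near that of all regions of the time course. Of them, 12.6% (12.0 to 13.2) had their midpoint within 3 kb upstream of a TSS, against 27.1% (26.7 to 27.5) of the other iPSC regions and 46.9% of the regions open in all 7 libraries. Introns held 39.9%, exons 9.55% and intergenic sequence 38.0% of the iPSC-only regions. Over all 204843 regions, the iPSC-only regions among them, promoters held 13.6% (13.4 to 13.7), introns 40.1%, exons 7.50% (7.39 to 7.62) and intergenic sequence 38.9%. The median TSS distance over all regions was 12887 bp. These shares were close to those of the iPSC-only regions, but the promoter and exon intervals did not overlap. The exon interval of the iPSC-only regions was 9.06% to 10.1%. The regions shared with late cells alone lay in intergenic sequence more often, at 52.2% (50.5 to 53.9) for D16S+ and iPSCs and 50.5% (48.8 to 52.2) for D12S+, D16S+ and iPSCs. The median distance of an iPSC-only region from the nearest TSS was 10448 bp, between the 4109 bp of other iPSC regions and the 17519 bp of regions shared with D16S+ alone. Peak height moved with this share: promoters held 14.2% of the iPSC-only regions with 10 to 12 tags and 9.29% of those with 20 or more, while in other iPSC regions the share rose from 17.5% to 34.9%. At each of the 4 heights compared, the promoter share was lower in the iPSC-only regions.

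**Figure D2:**
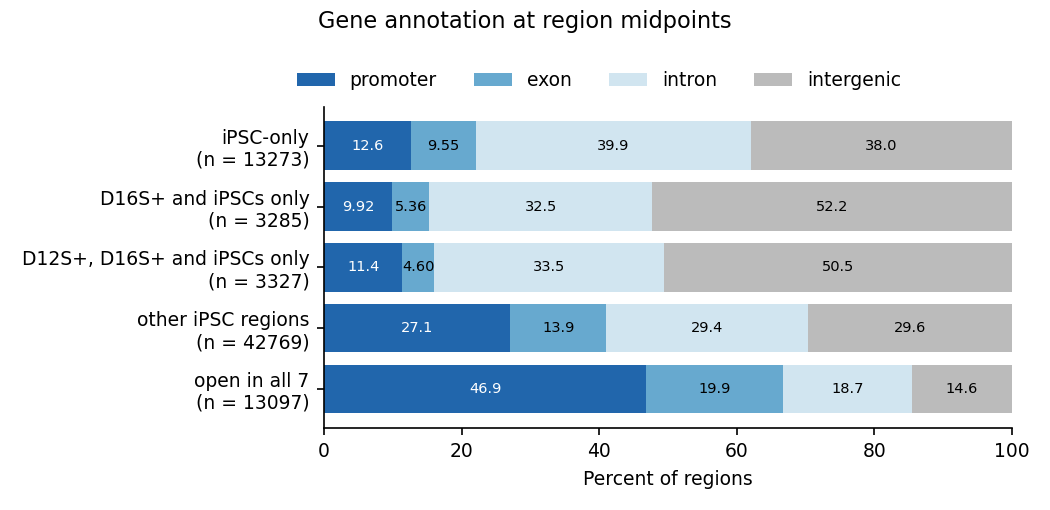
Percent of regions (horizontal axis) whose midpoint lay in a promoter, exon, intron or intergenic sequence, for iPSC-only regions and 4 other sets of iPSC regions. Promoters take 12.6% of the iPSC-only bar and 46.9% of the bar for regions open in all 7 libraries.

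The sequence under the summit was poorer in CpG than that of the other iPSC regions. The 200 bp window had a median GC content of 52.5% in iPSC-only regions, 56.0% in other iPSC regions and 62.5% in regions open in all 7 libraries. The mean number of CpG dinucleotides per window was 3.92, 8.41 and 14.3 in the same order. In regions shared by D12S+, D16S+ and iPSCs alone the mean was 3.15, lower than in iPSC-only regions.

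Transcription factor motifs were searched on both strands of the 200 bp windows: ESRRB (TCAAGGTCA), OCT4 octamer (ATGCNAAT), KLF (GGGNGTGG), STAT (TTCCNGGAA), PRDM14 (GGTCTCTAA), NRF1 (GCGCATGCG), RUNX (TGTGGTTT), the SOX, GATA, TEAD, AP-1 and MYC E-box motifs spelled out with their shares below, and the CTCF and OCT4-SOX2 composite consensus. The composite overlaps the octamer and SOX motifs. A match is a string in the window, not a bound site. Among the 14 motifs, ESRRB differed most in proportion upward. It was found in 191 of 13273 iPSC-only windows (1.44%, 1.25 to 1.66), in 0.449% (0.390 to 0.517) of the other iPSC windows and in 0.176% of those open in all 7 libraries. Regions shared by D16S+ and iPSCs alone, at 1.37% (1.03 to 1.83), were close to the iPSC-only share. Outside promoters the shares were 1.41% in iPSC-only and 0.507% in other iPSC regions. The ESRRB share rose with peak height among iPSC-only regions, from 1.04% at 10 to 12 tags through 1.34% and 1.95% to 2.80% (1.86 to 4.2) at 20 or more, whereas in other iPSC regions it lay between 0.440% and 0.477% at every height.

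Over all heights the OCT4 octamer was found in 3.68% (3.37 to 4.01) of iPSC-only and 3.45% (3.28 to 3.62) of other iPSC windows, and the intervals overlap. At equal height its share was higher in iPSC-only regions, with 2.66% against 2.23% at 10 to 12 tags, 3.47% against 3.15% at 13 to 15, 4.97% against 3.28% at 16 to 19 and 7.0% (5.42 to 9.00) against 4.0% at 20 to 44. The difference was smallest at 10 to 12 and 13 to 15 tags, which held 4402 and 5730 iPSC-only regions. Below 20 tags no intervals were computed at these heights, so these differences have no measure of counting error. Promoters held 9.29% of the iPSC-only and 34.9% of the other iPSC regions at 20 to 44 tags. The octamer shares by height were not split by promoter. The octamer was more frequent in the late groups, at 6.73% (5.92 to 7.64) for D16S+ and iPSCs alone and 8.15% (7.26 to 9.12) for D12S+, D16S+ and iPSCs alone. The OCT4-SOX2 composite was also most frequent in the late groups, with 0.550% in iPSC-only regions, 1.07% and 1.77% in the late groups and 0.559% in other iPSC regions.

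The SOX motif (CATTGTT) was found in 3.63% (3.33 to 3.96) of iPSC-only and 2.72% (2.57 to 2.88) of other iPSC windows. The GATA motif (AGATAAG) was at 2.58% (2.33 to 2.87) and 1.48% (1.37 to 1.60). The TEAD motif (GGAATGT) was at 4.54% (4.2 to 4.91) and 3.43% (3.26 to 3.61). The KLF motif was the most frequent of the 14 motifs in both, at 13.9% (13.3 to 14.5) and 14.6% (14.3 to 14.9), with overlapping intervals. STAT, PRDM14 and RUNX shares also had overlapping intervals, as had the MYC E-box (CACGTG) at 4.05% (3.72 to 4.39) and 4.54% (4.35 to 4.74). The AP-1 motif (TGANTCA) was less frequent in iPSC-only regions, at 5.33% (4.96 to 5.72) against 6.49% (6.26 to 6.73). CTCF, the insulator factor, had the largest drop, with 1.23% (1.05 to 1.43) against 4.35% (4.16 to 4.55). NRF1, a factor of CpG-rich promoters, had 0.196% against 0.643%. In the late groups CTCF was lower still, at 0.761% for D16S+ and iPSCs alone and 0.661% for D12S+, D16S+ and iPSCs alone. A low CTCF share is thus not particular to iPSC-only regions. In the same order, NRF1 was at 0.213% and 0.0902%, AP-1 at 4.84% and 5.71% and SOX at 3.77% and 4.63%. TEAD was at 3.84% and 4.93%, and GATA at 1.64% and 1.83%, below its iPSC-only share.

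**Figure D3:**
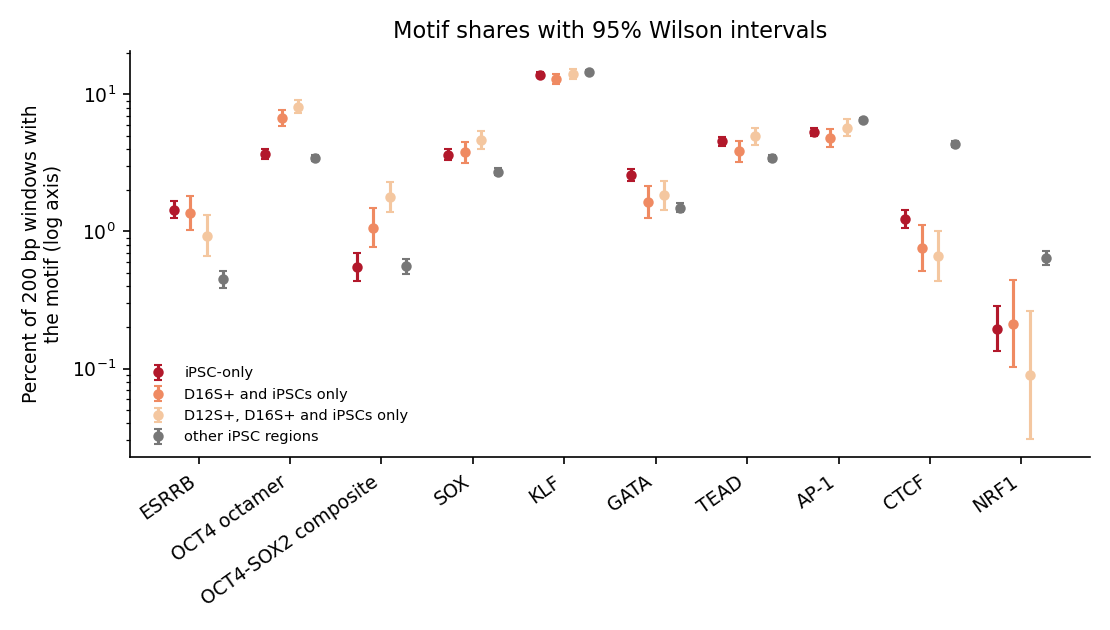
Percent of 200 bp windows with a match to each of 10 motifs (vertical log axis) in iPSC-only regions (red), the groups shared with late cells alone (orange tones) and other iPSC regions (grey), with 95% Wilson intervals. ESRRB stands at 1.44% in iPSC-only regions and 0.449% in other iPSC regions, while CTCF stands at 1.23% and 4.35%.

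Motif positions were then set against the same sequence farther out. For each region, a match in the central 200 bp (100 bp on either side of the summit) was compared with a match in the flanks at 400 to 500 bp on either side, which have the same total length. ESRRB was found in the centre of 195 iPSC-only regions and in the flanks of 88, a ratio of 2.22. In other iPSC regions the centre held 203 and the flanks 244, a ratio of 0.832, so the string was not denser under their summits. In regions shared by D12S+, D16S+ and iPSCs alone the ratio was 2.13, from 32 and 15 regions. The octamer was denser in the centre of both sets, with ratios of 2.04 and 1.85, and in regions shared by D12S+, D16S+ and iPSCs alone with 3.09. AP-1 was flat in iPSC-only regions, with 734 in the centre and 701 in the flanks (ratio 1.05), and denser in the centre of other iPSC regions (1.28). GATA, whose share was higher in iPSC-only windows, was also flat there (1.05), with 351 and 334 regions. TEAD had ratios of 1.80 and 1.33, SOX 1.48 and 1.17, and KLF 1.63 and 1.67. The windows of other iPSC regions are richer in CpG, and the part that base composition has in these ratios was not tested.

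**Figure D4:**
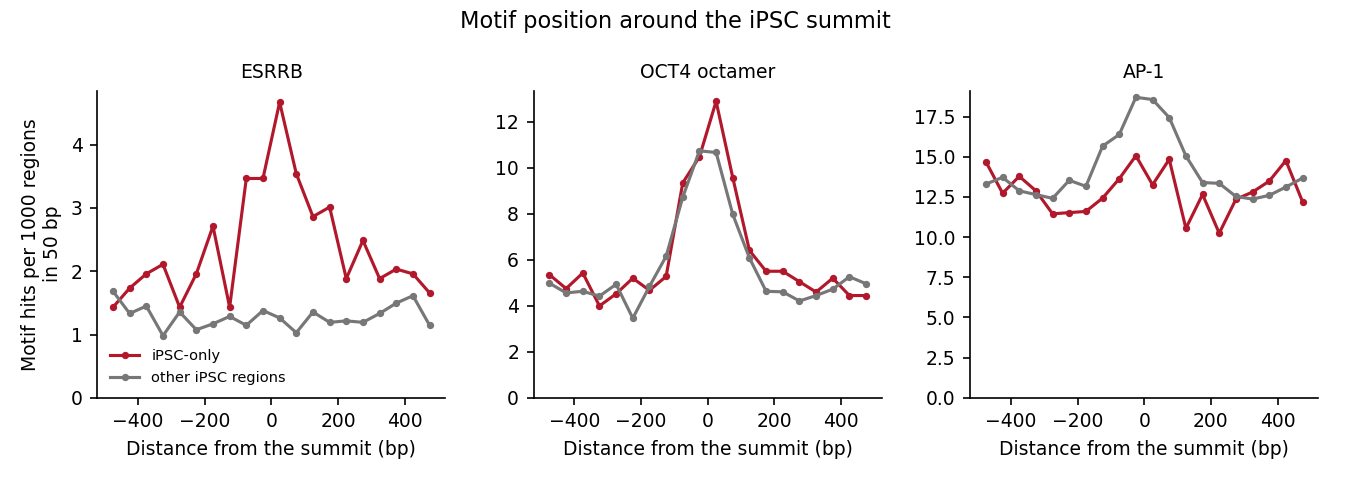
Matches per 1000 regions in bins of 50 bp (vertical axis) by distance from the iPSC summit (horizontal axis, bp) for ESRRB, the OCT4 octamer and AP-1, in iPSC-only regions (red) and other iPSC regions (grey). ESRRB rises to 4.67 per 1000 beside the summit of iPSC-only regions and stays at 1.26 in the same bin of the others.

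Many iPSC-only regions had a close copy of their sequence under another iPSC peak. The 200 bp windows were compared with each other by blastn, and a similar window was a match of at least 75% identity over at least 100 bp at a peak more than 1 kb away. Such a window existed for 2371 iPSC-only regions (17.9%, 17.2 to 18.5). The share was 11.7% (11.4 to 12.0) in other iPSC regions, 38.3% (36.6 to 39.9) and 37.6% (35.9 to 39.2) in the late groups, and 4.03% in regions open in all 7 libraries. At least 10 similar windows were found for 1504 iPSC-only regions (11.3%). Reads that mapped to more than 1 locus had been removed by the authors, so only copies that differ enough to be told apart can show a peak. No repeat annotation was used, and the families below carry no names.

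Similar windows were gathered into families, each around the window with most partners. Of all iPSC regions 23.7% were iPSC-only, and of the 7361 with a similar window 2371 were. In the largest family, of 451 regions on all 19 chromosomes, 130 (28.8%) were iPSC-only and 226 were shared with D16S+ alone. In the fourth family 127 of 214 regions (59.3%) were iPSC-only, the highest share of the 8 families described, and 55 more were shared with D16S+ alone. In the fifth, 35 of 195 regions (17.9%) were iPSC-only, below the share over all iPSC regions. Of its windows, 50.8% held the octamer and 72.3% the AP-1 motif. In the seventh, 54 of 145 (37.2%) were iPSC-only and 73.1% held the KLF motif. No region of the fourth family was open in all 7 libraries. Members of these 3 families are printed to show how alike the copies are, with the octamer and, where the copy has it, the AP-1 motif in capitals in the fifth and the KLF motif in the seventh. The second copies of the fourth and seventh families were read from the - strand and all others from the + strand, so that the copies of a family run the same way.
Family 4, chr5:94436453-94436652: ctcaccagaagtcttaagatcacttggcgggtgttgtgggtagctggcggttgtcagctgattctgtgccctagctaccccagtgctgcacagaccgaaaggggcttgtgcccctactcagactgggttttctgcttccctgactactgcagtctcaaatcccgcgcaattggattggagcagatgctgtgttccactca
Family 4, chr8:55702159-55702358: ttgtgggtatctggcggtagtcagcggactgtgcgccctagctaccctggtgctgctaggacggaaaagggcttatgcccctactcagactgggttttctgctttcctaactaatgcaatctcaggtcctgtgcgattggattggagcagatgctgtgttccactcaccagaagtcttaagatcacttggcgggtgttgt
Family 5, chr1:152470442-152470641: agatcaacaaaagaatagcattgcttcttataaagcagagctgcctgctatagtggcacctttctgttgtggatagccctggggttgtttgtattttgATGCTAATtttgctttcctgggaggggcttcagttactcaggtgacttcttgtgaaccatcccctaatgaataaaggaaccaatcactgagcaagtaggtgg
Family 5, chr1:5148843-5149042: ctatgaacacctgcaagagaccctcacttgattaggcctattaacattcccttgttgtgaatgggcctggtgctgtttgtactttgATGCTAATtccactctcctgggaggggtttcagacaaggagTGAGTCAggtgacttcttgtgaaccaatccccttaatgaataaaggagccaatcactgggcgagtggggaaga
Family 7, chr5:118844153-118844352: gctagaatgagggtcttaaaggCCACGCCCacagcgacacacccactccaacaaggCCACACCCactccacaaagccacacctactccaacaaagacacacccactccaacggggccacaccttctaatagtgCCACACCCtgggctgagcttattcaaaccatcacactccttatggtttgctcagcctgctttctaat
Family 7, chr8:105510967-105511166: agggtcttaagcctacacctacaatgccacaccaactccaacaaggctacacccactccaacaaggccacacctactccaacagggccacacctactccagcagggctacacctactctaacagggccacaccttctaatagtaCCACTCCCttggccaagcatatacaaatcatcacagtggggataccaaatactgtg

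The 2 copies of the fourth family were 86.2% identical over 167 aligned bp, and both peaks had 29 tags. Those of the fifth were 81.1% identical over 143 bp, with 27 and 24 tags, and the octamer stood in both while the AP-1 motif stood in the second alone. Those of the seventh were 84.7% identical over 131 bp, with 24 and 21 tags, and held 3 and 1 KLF matches.

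The octamer was more frequent in regions with a similar window. It was found in 7.17% (6.20 to 8.28) of iPSC-only windows with a similar window and in 2.92% (2.62 to 3.25) of those without. In other iPSC regions the shares were 7.25% and 2.94%, so that within either class iPSC-only and other iPSC regions overlapped. ESRRB was at 1.48% (1.06 to 2.05) with and 1.43% (1.22 to 1.67) without a similar window in iPSC-only regions, which overlap. In other iPSC regions it was at 0.701% (0.505 to 0.974) with and 0.416% (0.356 to 0.486) without, which do not overlap, and in the second family it was at 2.82%. TEAD was at 7.25% with and 3.95% without a similar window in iPSC-only regions, and at 4.79% and 3.25% in other iPSC regions.

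The strongest iPSC-only region, with 44 tags (1.66 CPM), spanned chr7:111447863-111448805 in the promoter of Trim34b, a member of the TRIM family of antiviral proteins. A second TRIM gene of the same cluster, Trim30d, had a region of 32 tags at chr7:111650516-111650951. Of the 20 strongest regions, 14 lay in intergenic sequence, and 10 had at least 10 similar windows elsewhere. These include chr3:112045822-112046364 with 43 tags and 117 similar windows, 1015 kb from the nearest protein-coding TSS, and chr13:75537242-75537699 with 34 tags and 298 similar windows. The region near Myc described above was among the 4 highest. Regions of 37 tags lay in an exon of Mrps5, a mitochondrial ribosomal protein gene (chr2:127430917-127431398), and in intergenic sequence at chr16:50994176-50994468. A region of 35 tags lay 18.4 kb upstream of Bcat1, the cytosolic branched-chain aminotransferase (chr6:145042861-145043383).

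Among iPSC-only regions in promoters of protein-coding genes (1352 in all), the 10 highest ran from 44 to 25 tags. After Trim34b these were Fbxw10 (33 tags, chr11:62659200-62659611, also inside Trim16), Zmiz1 (32, chr14:26423930-26424641) and Zfp961 (27, chr8:74476948-74477428). Plcb4, Ccdc132, Rpp25, 3830431G21Rik, Trmt61a and Dlgap5 followed with 25 tags each. Zmiz1 encodes a transcriptional coactivator and Plcb4 a phospholipase C. The Zfp961 region held the octamer and had 85 similar windows, and the Ccdc132 region had 183.

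Many iPSC-only regions lay close to another iPSC region, iPSC-only or not. Of them, 50.2% lay within 5 kb of any such region, midpoint to midpoint, against 43.5% of the other iPSC regions and 35.8% of those shared with D16S+ alone. To the nearest region that was not iPSC-only, the median distance was 7527 bp. The window of 100 kb with most iPSC-only regions held 16 among 35 iPSC regions and covered Gse1, a coiled-coil protein gene, at chr8:123000001-123100000. Their pileups there ran from 10 to 25 with a median of 13.5. The next window held 13 of 30 and covered Manbal and Src, the tyrosine kinase gene. Windows over Grik3, a kainate receptor gene (12 of 18), over Ephb2, an ephrin receptor gene (12 of 19), and over R3hdm2, Stac3, Ndufa4l2, Shmt2, Nxph4 and Lrp1 (12 of 26) followed. All heights in these 5 windows were between 10 and 25 tags.

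Counted from 3 kb upstream of the gene to its end, the protein-coding gene models with most iPSC-only regions were Gm20388 (130, a model of 4435 kb that spans many genes) and Fgfr2 (22 in a model of 3009 kb). Ephb2 had 21 in 188 kb beside 7 other iPSC regions, and Msi2, an RNA-binding protein gene of stem and progenitor cells, had 21 in 427 kb beside 16. Grik3 had 17 (12 others), Gse1 16 (19 others), Zmynd8 and Rnf220 12 each, and Prex1 and Cdh4 11 each. Per 100 kb of gene, Gse1 had 17.3, Ephb2 11.1 and Zmynd8 10.4. Across chromosomes, the share of iPSC regions that were iPSC-only ran from 19.8% on chromosome 3 to 26.1% on chromosome 11.

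Genes of the pluripotency network had iPSC-only regions nearby in larger share than all protein-coding genes. Within 50 kb of a TSS, 30 of 32 core and naive pluripotency genes had an iPSC-only region (93.8%, 79.9 to 98.3), where 52.6% of 21281 protein-coding genes had one. Within 10 kb it was 24 of 32 (75%, 57.9 to 86.7), where 22.5% of protein-coding genes had one. All 32 also had other iPSC regions within 10 kb, as had 74.1% of protein-coding genes. Klf4 and L1td1 were without an iPSC-only region within 50 kb. These counts describe the list, and a gene with many iPSC regions around it has more chances to hold an iPSC-only region.

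Esrrb, the gene of the nuclear receptor itself, had 10 iPSC-only regions within 50 kb beside 12 other iPSC regions. The strongest, with 21 tags at chr12:87844743-87845764, lay 126 bp downstream of a TSS and held an ESRRB motif. Pou5f1 had 8 beside 10 others, Sall4 had 6 beside 7, and Lin28a, which blocks let-7 maturation, had 5 within 10 kb of its TSS beside 8 others within 50 kb. The strongest at Sall4 reached 22 tags at chr2:168594703-168595140, 1.47 kb upstream. Nanog had 2, the stronger with 19 tags at chr6:122613777-122614154, 43.5 kb upstream of Nanog and 37.2 kb from Dppa3. That region lay 361 bp from a D12S+ peak and 412 bp from a D16S+ peak. Sox2 had 1, with 16 tags, 3.73 kb downstream of its TSS at chr3:34552684-34553101. Zfp42 (Rex1), Klf2, Tbx3, Nr5a2, Tcl1 and Zscan10 had from 2 to 4 each, with strongest pileups of 15 to 17 tags. The region 1.26 kb upstream of Dppa2 (24 tags, chr16:48309113-48309487) had similar windows at other iPSC peaks, and a D16S+ peak lay 1024 bp from it.

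Genes of DNA methylation followed the pluripotency list closely, with 8 of 9 within 50 kb and 7 of 9 (77.8%, 45.3 to 93.7) within 10 kb. Tet1, which oxidises 5-methylcytosine, had 8 iPSC-only regions beside 6 other iPSC regions, 6 of them within 10 kb, and the strongest (22 tags, chr10:62360885-62361340) lay 861 bp downstream of a TSS. Dnmt3a, a de novo methyltransferase, had 8 beside 11, with 20 tags at chr12:3864440-3864819. Dnmt3l, its catalytically inactive cofactor, had 3, all within 10 kb. Dnmt3b was the gene of the list without any, beside 16 other iPSC regions. Tet2 had 2, and the stronger (18 tags, chr3:133253639-133253992) held an octamer and a SOX motif.

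Of 18 germline genes, 6 had an iPSC-only region close to a TSS. An iPSC-only region had its summit within 500 bp of a TSS in 6 of 18 germline genes (33.3%, 16.3 to 56.3), where 3.02% of protein-coding genes had one, and in 3 of 32 pluripotency genes. This distance was chosen after the values were seen. Within 10 kb it was 7 of 18 (38.9%, 20.3 to 61.4) and within 50 kb 11 of 18 (61.1%, 38.6 to 79.7), and these intervals contain the backgrounds of 22.5% and 52.6%, respectively. The 6 genes were Ddx4 (Vasa, an RNA helicase of germ cells), Stk31, Tdrd1 (a Tudor protein of the piRNA pathway), Hormad1 (meiotic chromosome axis), Stra8 (meiotic entry) and Nanos3 (an RNA-binding protein of germ cells). The summits lay at -55 bp from the TSS of Ddx4 (16 tags), -64 bp at Stk31 (14 tags), -9 bp at Tdrd1 (12 tags), -175 bp at Hormad1 (19 tags), -179 bp at Stra8 (17 tags) and 255 bp at Nanos3 (11 tags), negative values being upstream. Stk31 (0.527 CPM), Tdrd1 (0.451) and Nanos3 (0.414) lay below the 0.530 CPM that D9T- needed for a call. Tdrd1 and Nanos3 also lay below the 0.454 CPM of D12S+, and Nanos3 below the 0.425 CPM of D16S+. An opening of the same CPM was not detectable in those libraries. Other iPSC regions had a summit within the same distance of 50.0% of the list and 59.4% of protein-coding genes. The windows at Ddx4, Stk31 and Tdrd1 held 31, 20 and 21 CpG dinucleotides and an E-box each, where the mean over iPSC-only regions was 3.92 CpG. Those at Hormad1, Nanos3 and Stra8 held 11, 7 and 4 CpG and no E-box. The Hormad1 window (chr3:95363324-95363523, + strand), printed with its 11 CpG in capitals, lay outside exons.
Hormad1, upstream: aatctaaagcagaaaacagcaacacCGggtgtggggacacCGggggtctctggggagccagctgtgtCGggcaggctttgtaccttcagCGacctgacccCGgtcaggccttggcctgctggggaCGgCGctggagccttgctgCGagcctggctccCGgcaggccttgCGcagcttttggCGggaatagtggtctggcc

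The other lists had smaller shares within 10 kb than the pluripotency and DNA methylation lists. Within 10 kb, iPSC-only regions were found at 9 of 17 primed epiblast and lineage genes (52.9%, 31.0 to 73.8), 8 of 17 Wnt genes (47.1%, 26.2 to 69.0), 7 of 18 epithelial genes (38.9%), 5 of 14 Polycomb and heterochromatin genes (35.7%) and 6 of 18 Nodal and TGF-beta genes (33.3%). Trophoblast and neural lists had 6 of 10 each (60%, 31.3 to 83.2). The LIF and Stat3 list had 2 of 10, Socs3 and Tyk2, a share no larger than the background. Of these intervals, those of the primed epiblast, Wnt, trophoblast and neural lists lay above 22.5%. The lists overlap in genes such as Cdx2, Hand1 and Pax6.

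Single genes of these lists had regions as high as those of the pluripotency genes. Tcf7l2, a Wnt effector, had 6 iPSC-only regions within 50 kb, the strongest with 31 tags at chr19:55793479-55793945. Tcf7l1 had 7 beside 17 other iPSC regions, with up to 22 tags. Jarid2, a partner of Polycomb complex PRC2, had 31 tags at chr13:44774657-44775152, 49.9 kb upstream. Cbx7, a Polycomb subunit of stem cells, had 9, with 25 tags at chr15:79801362-79801764, at -59 bp from a TSS. Acvr1b, an activin and Nodal receptor, had 6, and Lifr, the LIF receptor, had 3, the strongest with 20 tags and an octamer.

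Mesenchymal and fibroblast genes had the fewest among the larger lists. Of 33 genes, 3 (9.09%, 3.14 to 23.6) had an iPSC-only region within 10 kb, namely Snai1, Snai2 and Runx2, with 14, 13 and 10 tags. Within 50 kb it was 13 of 33 (39.4%, 24.7 to 56.3), and the intervals contained the backgrounds of 22.5% and 52.6%, respectively. Other iPSC regions lay within 10 kb of 78.8% of the list. Twist1, Col5a1, Col5a2, Col6a1, Fn1, S100a4, Pdgfrb, Fosl1, Jun and Cd44 also had iPSC-only regions within 50 kb, with up to 20 tags at Cd44. Thy1, Col1a1, Col1a2, Col3a1, Twist2, Zeb1, Zeb2 and Prrx1 were among the genes without one within 50 kb. Of 8 genes of the 2-cell stage that were found in the annotation, none had an iPSC-only region within 10 kb and Zfp352 and Tdpoz1 had 1 each within 50 kb.

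**Figure D5:**
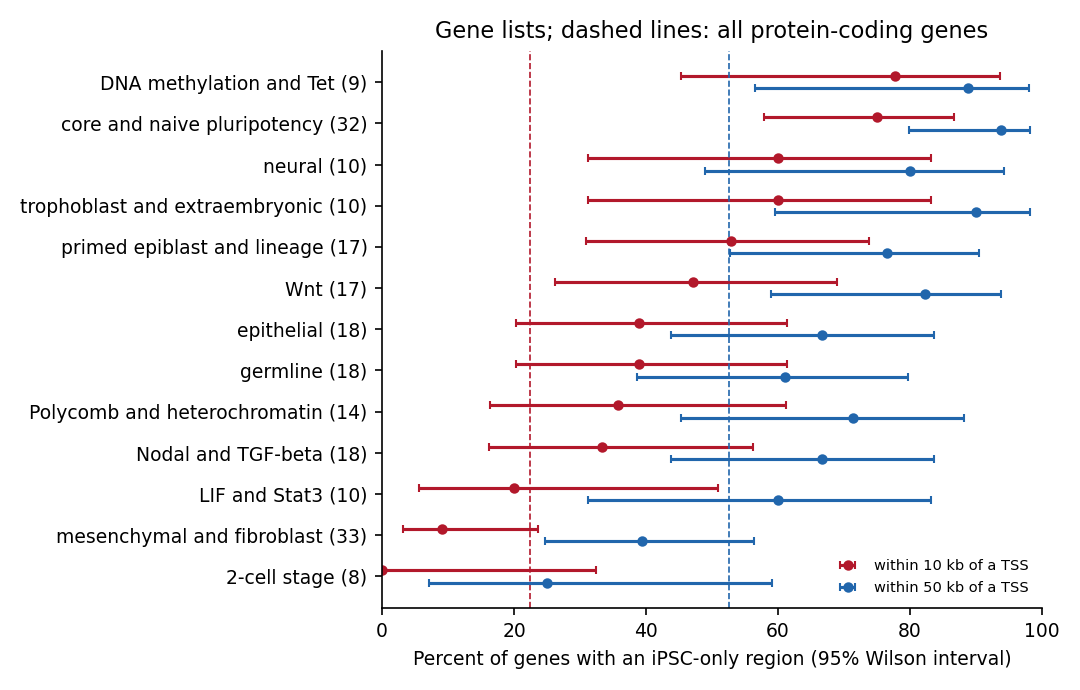
Percent of the genes of each list (horizontal axis, number of genes in brackets) with an iPSC-only region within 10 kb (red) or 50 kb (blue) of a TSS, with 95% Wilson intervals, and the same percent over all protein-coding genes (dashed). Pluripotency genes stand at 75% and 93.8% beside 22.5% and 52.6%, and mesenchymal genes at 9.09% and 39.4%.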

How the data were processed

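ATAC-Seq peak files of 9 libraries (1 per condition) were analysed. The authors mapped the reads with STAR to mm9, kept reads at 1 locus, removed duplicates with Picard and called peaks per library with MACS2 2.1.0.20151222 without a control, at a q-value of 0.05, with tags extended to 200 bp and no local background. The deposited pileup (a signal) counts the lengthened tags at a summit and is not scaled for depth. The deposited fold enrichment is a ratio over evenly spread tags, and p-values and q-values were deposited on the −log10 scale. Per the file headers the tag size was 51 bp.

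Summits of a peak were joined and the highest kept. CPM is the pileup scaled to the tags of its library. Only chromosomes 1 to 19 were used. Genes came from GENCODE vM1 and sequence from NCBIM37, which is mm9. Older gene symbols were matched through RefSeq, and Sox1, Suv39h1, Dcx, Tcstv1 and Tcstv3 were not matched on these chromosomes. Members, lists and motifs were chosen with earlier results of these data known. Regions named are the 20 highest members, the 10 highest in promoters, the 5 densest windows of 100 kb, the 10 protein-coding genes with most members, and genes of the 13 lists. Intervals are 95% Wilson intervals over regions or genes, which are not replicates, and PCR duplicates had been removed without molecular identifiers. Windows were compared with blastn 2.17.0 (E-value 1e-10). matplotlib 3.10.9, scipy 1.17.1, pandas 2.3.3 and numpy 2.4.6 were used under Python 3.11.15, and the functions were tested on simulated data. Alternatives were other peak filters, overlaps, windows, promoters and distances. The shares after depth, siRNA and sequence-family filters and the ESRRB results were added after seeing the data. Other assays of the study were not analysed here.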

Additional observations from a re-analysis of the deposited data

How the results depend on the processing

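The number of iPSC-only regions depended on the peaks admitted: it was 7474 with the stronger 50% of the peaks of every library, 8139 with the 35811 strongest peaks of each, 3141 with a −log10 q-value of at least 5 and 4558 where the iPSC CPM reached the lowest value called in each other library. Under these 4 settings the promoter share was 12.9%, 13.6%, 10.1% and 10.7%, the octamer share 5.35%, 4.37%, 5.48% and 5.13%, and the ESRRB share 1.47%, 1.40%, 2.16% and 1.82%. The share with a D6 siNT peak was 1.24% with equal numbers of peaks. Where a peak within 500 bp counted as open, promoters held 10.4% and the octamer 4.02%. With 50% of either peak covered, promoters held 13.8%. The promoter share was 6.21% with a promoter from 1 kb before to 100 bp after the TSS and 10.2% for protein-coding genes only. Without members that had a similar window elsewhere it was 13.7%, and the octamer share was 2.92%. In windows of 500 bp the octamer share was 6.47% and the ESRRB share 2.80%. Pluripotency genes with an iPSC-only region numbered from 24 (within 10 kb) to 30. Leaving D9T- out of the libraries that had to lack a peak gave 13308 regions. Most of these changes come from a different set of regions, and the cause was not tested further. No paired analysis was possible because each condition had 1 library. A peak below 0.530 CPM could not be called at D9T-.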

Other observations

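On chromosome X, which the rule left out, 69 of 755 iPSC regions (9.14%) had no peak in the 6 other libraries, below the 19.8% to 26.1% of chromosomes 1 to 19. The iPSC library had 5 regions on chromosome Y, of which 1 was without a peak in the other libraries. The sources used here do not give the sex of the embryos, and copy number between the libraries was not tested.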
